A study of Mus musculus with 8 samples.

Results

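The serum amyloid A (Saa) genes of the mouse were examined in ribosome footprints of liver. The members were the lines of the deposited table whose gene symbol is Saa1, Saa2, Saa3 or Saa4, and all 4 were found among 7500 genes with a line. Livers came from male FVB/N mice fed, from weaning, a selenium-deficient torula yeast diet for 6 weeks, either with 0 ppm selenium added (0 Se, 2 mice, 4 libraries) or with 0.1 ppm selenium added as sodium selenite (0.1 Se, 2 mice, 4 libraries). Each of the 4 mice gave 2 libraries. Ribosome profiling sequences the stretches of mRNA of about 30 bases that ribosomes protect from nuclease, so a footprint count measures how many ribosomes were on a coding sequence.

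The deposited table holds 1 level per gene, the authors' average log2 CPM (counts scaled to 1000000 per library) over the libraries of both diets. Levels are therefore given without an SD or n, neighbouring genes in an order of levels could not be tested against the spread between mice, and library depths cannot be read from the table. The table's other values are the authors' own comparison of the diets, which was not used, and no difference between 0 Se and 0.1 Se is given. What follows describes how many footprints were counted on each Saa gene in these livers, and how much of each gene could be counted at all.

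Serum amyloid A proteins are small apolipoproteins that travel on high-density lipoprotein (HDL). During inflammation, interleukin-1, interleukin-6 and tumor necrosis factor reach the liver and induce Saa1 and Saa2 in hepatocytes, which makes their products major acute-phase proteins of the mouse, and fragments of these proteins form the fibrils of amyloid A amyloidosis. Saa3 is an inducible gene made largely outside hepatocytes, in macrophages and fat cells among others, and Saa4 is expressed constitutively by the liver.

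The 4 genes lie together on chromosome 7 within 42317 bases (mm9, chr7:53967368-54009684), in the order Saa3, Saa4, Saa1, Saa2. Saa3 (chr7:53967368-53971046), Saa4 (chr7:53983387-53987913) and Saa1 (chr7:53995871-53998350) are on the minus strand, and Saa2 (chr7:54007203-54009684) is on the plus strand. Saa1 and Saa2 therefore point away from each other, with 8853 bases between their annotated starts. Each gene has 4 exons, of which exons 2 to 4 hold the coding sequence. Saa1, Saa2 and Saa3 encode 122 residues each and Saa4 encodes 130. Aligned with Saa3, the additional 8 residues of Saa4 formed a single insertion at residues 85 to 92, and aligned with Saa1 or Saa2 they were split, with 5 of them at residues 85 to 89.

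The sequences that decide what can be counted are those of footprint length. The authors kept reads that aligned uniquely and allowed 2 mismatches, so a footprint from a stretch that recurs exactly in another Saa gene was lost to both. Whether a stretch that recurs with 1 or 2 mismatches was lost too depends on whether every alignment within 2 mismatches was judged or the best alone, which the methods did not state. Below, a window or start is termed countable if no other gene holds it with up to 2 mismatches, and values for 1 and 0 mismatches are given where they change the result. The stretch below, coding bases 150 to 179 in exon 3 of each gene, was chosen as the first that Saa1 and Saa2 have in common with the fewest differences in Saa3. Capitals mark bases that differ from Saa1.
Saa1: agacaaatacttccatgctcgggggaacta
Saa2: agacaaatacttccatgctcgggggaacta
Saa3: agacaaatacttccatgctcgggggaacta
Saa4: agacCaatacttcTatgctcgTgggaacta
These lie at chr7:53996677-53996706 in Saa1, chr7:54008846-54008875 in Saa2, chr7:53968010-53968039 in Saa3 and chr7:53985458-53985487 in Saa4 (mm9, each on its gene's strand). Saa1, Saa2 and Saa3 were identical over all 30 bases, so no footprint of this stretch could be assigned to any of them. Saa4 differed from them at 3 bases, which is above the 2 mismatches allowed.

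The stretch immediately before it, coding bases 120 to 149, also in exon 3, was chosen as the first of those where Saa1 and Saa2 differ most.
Saa1: tgacatgaaggaagctaactggaaaaactc
Saa2: tgacatgaaggaagctGGctggaaaGaTGG
Saa3: tgacatgaagAaagctaactggaaaaactc
Saa4: GgacaACCTAgaagctaaTtACCaaaaTGc
They lie at chr7:53996707-53996736 in Saa1, chr7:54008816-54008845 in Saa2, chr7:53968040-53968069 in Saa3 and chr7:53985488-53985517 in Saa4. Saa2 differed from Saa1 at 6 bases here, but Saa3 differed from Saa1 at 1 base. A footprint of this stretch was thus within 2 mismatches of another gene for Saa1 and Saa3, and not for Saa2 or for Saa4, which differed from Saa1 at 12 bases.

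Over the whole coding sequence, Saa1 and Saa2 were the closest pair. They differed at 18 of 366 aligned bases, spread evenly over the codon positions with 6 at each, and at 9 of 122 residues, an identity of 92.6% in protein. Of the 12 codons that differed, 3 left the residue as it was. Saa3 was 64.8% identical to Saa1 and 62.3% identical to Saa2 in protein, and differed from them at 99 and 105 bases. Saa4 was the most distant member, with 56.6%, 54.9% and 54.1% of aligned residues identical to Saa1, Saa2 and Saa3.

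As counted and averaged over both diets, Saa4 had the highest level of the family and Saa3 the lowest. The order of the members within either diet was not examined. The log2 CPM in the deposited table was 7.38 for Saa4, 6.55 for Saa1, 4.90 for Saa2 and 3.12 for Saa3. On the linear scale these are 167 CPM for Saa4, 93.7 CPM for Saa1, 29.8 CPM for Saa2 and 8.71 CPM for Saa3. The constitutive gene thus held 55.8% of the 299 CPM of the family, and the inducible hepatic genes Saa1 and Saa2 held 31.3% and 9.95%. Saa3 held 2.91%. Among all genes with a line, whose median log2 CPM was 3.95, the level of Saa4 exceeded that of 92.0% of genes, Saa1 that of 86.7%, Saa2 that of 67.7% and Saa3 that of 35.3%.

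**Figure D1:**
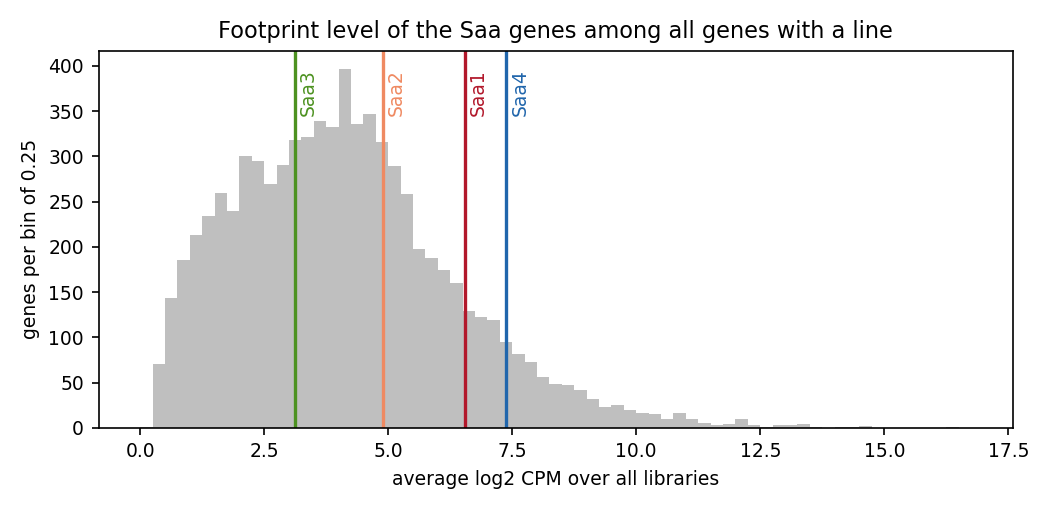
Histogram of the authors' average log2 CPM (x axis) of the 7500 genes with a line, with the number of genes per bin on the y axis and a vertical line at each Saa gene. Saa3 at 3.12 lies below the median of 3.95, and Saa2 at 4.90, Saa1 at 6.55 and Saa4 at 7.38 lie above it.

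Saa coding sequences are short, so levels were also compared per length. The length column of the deposited table gives 309 bases for Saa1, Saa2 and Saa3 and 333 for Saa4, which is 60 bases shorter than each coding sequence with its stop codon. The same difference was found for 7093 of the 7260 genes matched to a reference coding sequence, so the column is the length that was counted. Per counted kilobase, the level was 501 CPM for Saa4, 303 CPM for Saa1, 96.3 CPM for Saa2 and 28.2 CPM for Saa3, in the same order as before. On this scale Saa4 was 1.65-fold above Saa1, Saa1 3.15-fold above Saa2, and Saa2 3.42-fold above Saa3. The level of Saa4 per counted kilobase exceeded that of 97.2% of genes, Saa1 that of 95.2%, Saa2 that of 87.0% and Saa3 that of 70.1%.

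The share of each gene that could be counted differed widely between members. Every 30-base window of the counted region was searched for in the counted regions of 22466 mouse coding sequences, on both strands. Of 280 windows of Saa1, 229 (81.8%) occurred in another gene with at most 2 mismatches, which left 51 countable starts. Of 280 windows of Saa2, 197 (70.4%) did so, which left 83. For Saa3 it was 86 of 280 windows (30.7%), which left 194, and for Saa4 it was 0 of 304. All of the genes that held these windows were other Saa genes. Saa2 accounted for 197 of the windows of Saa1 and Saa3 for 65, with some windows found in both.

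The countable starts of Saa1 lay in few places. From 49 to 77 bases into the coding sequence, in exon 2, there were 29, a run of 21 covered the starts from 216 to 236 at the junction of exons 3 and 4, and 1 more lay at 244. Saa2 had the same runs and in addition 32 starts from 116 to 147 in exon 3. That is the stretch where Saa1 resembles Saa3 and Saa2 does not. The longest run of Saa3 held 149 starts, from 180 to 328.

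**Figure D2:**
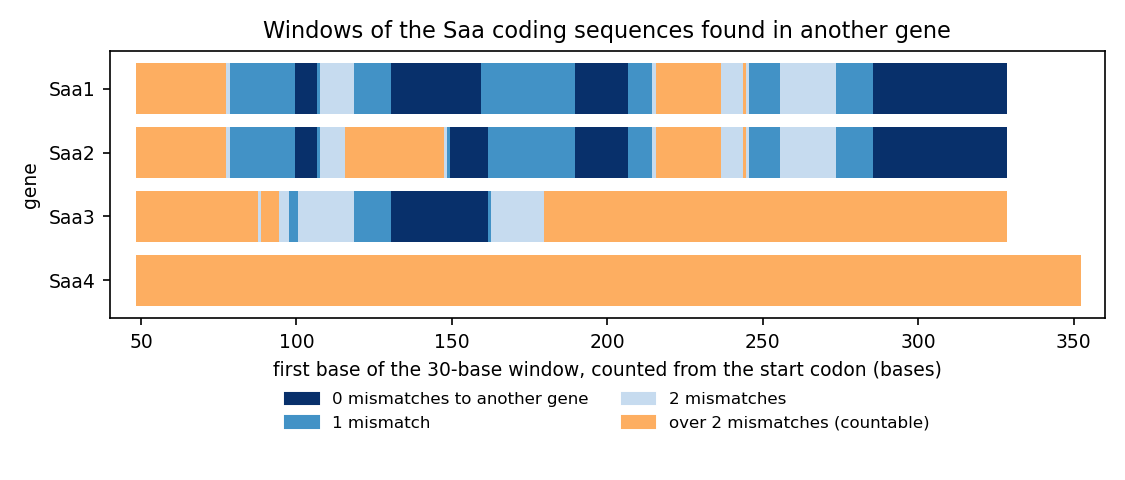
Map of the 30-base windows of each Saa gene (y axis) by the position of their first base from the start codon (x axis, bases), coloured by the fewest mismatches to a window of another gene. Countable windows fill the whole row of Saa4 (304 of 304), most of the row of Saa3 (194 of 280), and only 83 and 51 of 280 starts of Saa2 and Saa1.

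Even with exact matches alone, Saa1, Saa2 and Saa3 were unusual among the genes of the table. With 0 mismatches, 34.3% of the windows of Saa1, 28.2% of Saa2 and 11.1% of Saa3 occurred in another gene. Of 7260 genes searched in this way, 86.3% had no window in another gene, and 5.79% had 10% or more. The share of Saa1 exceeded that of 96.5% of genes, Saa2 that of 96.1% and Saa3 that of 94.4%.

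When levels were divided by the number of countable starts in place of the counted length, the order at the top of the family changed. With starts unique at up to 2 mismatches, the level was 1837 CPM per 1000 starts for Saa1, 549 CPM for Saa4, 359 CPM for Saa2 and 44.9 CPM for Saa3. Saa1 was then 3.35-fold above Saa4, and 5.12-fold above Saa2. Saa1 held 65.9% of the family on this scale and Saa4 19.7%, against 32.6% and 54.0% per counted kilobase. If reads had been dropped only for exact matches elsewhere, the level would be 509 CPM per 1000 starts for Saa1 and 549 CPM for Saa4, and with 1 mismatch 1041 CPM for Saa1 and 549 CPM for Saa4. So Saa4 was above Saa1 per counted base and with exact matches, and below it with 1 or 2 mismatches. Saa2 remained below both, and Saa3 below Saa2, on each of these scales. Division by starts assumes that ribosomes were spread evenly along each coding sequence, which was not tested, and a level that rests on 51 starts in a few places is more exposed to a local pause or gap than one that rests on 304.

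**Figure D3:**
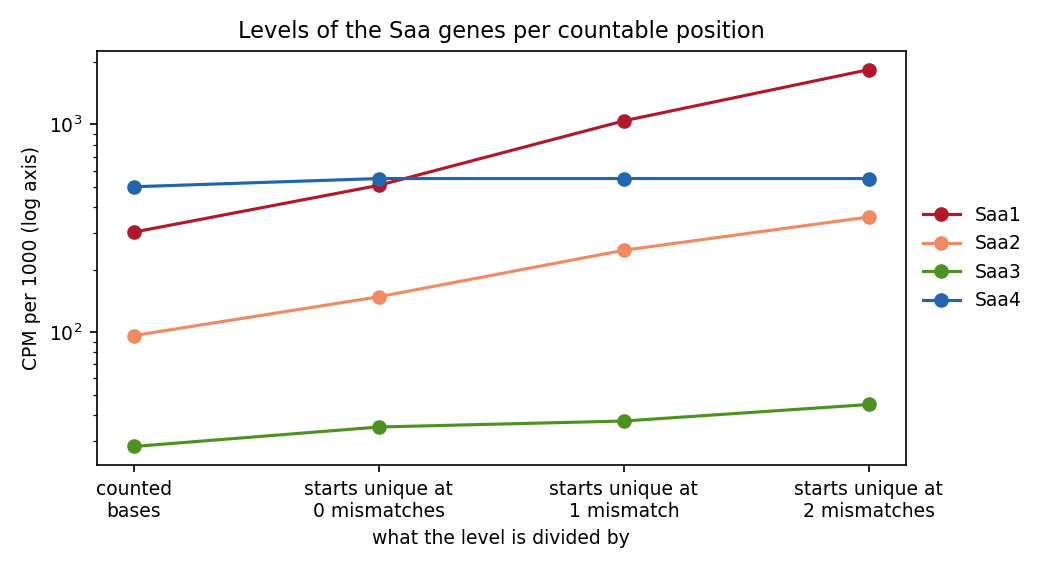
Levels of the Saa genes (CPM per 1000 positions, log y axis) divided by counted bases or by the starts unique at 0, 1 or 2 mismatches (x axis), as the authors' averages over all libraries with no error. Saa4 stays between 501 and 549 CPM, Saa1 goes from 303 to 1837 CPM and crosses it between 0 and 1 mismatch, and Saa3 stays lowest.

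Other secreted acute-phase proteins give the scale of these levels in liver. Of 26 genes of a fixed list, 24 had a line, with a median of 777 CPM per counted kilobase and a range from 15.9 to 6554. On this scale Saa4 was below 15 of the 24 and above 9, Saa1 was below 19, Saa2 below 22 and Saa3 below 23. The place of Saa1 depended on the denominator. With list genes and Saa genes both divided by starts unique at up to 2 mismatches, Saa1 was below 10 of the 24, with 1 mismatch below 11 and with exact matches below 17. Saa4 was then below 17, 17 and 16, Saa2 below 19, 21 and 21, and Saa3 below 23 each time. The starts were those of the longest reference coding sequence, which for some list genes was not the length counted. Fga thus went from 6554 CPM per counted kilobase to 4637 CPM per 1000 starts, though it shared no window with another gene. Some genes above Saa1 at 2 mismatches rested on few starts themselves. Cfb had 9 such starts, Serpina1a 28, Serpina1b 34 and Hamp 43. Serpina1a went from 194 CPM per counted kilobase, below Saa1, to 8685 CPM per 1000 starts. Cfb shared 99.6% of its windows, mainly with Gm20547, and whether the authors' transcripts held that gene was not checked. The 3 of the list with the highest log2 CPM were Fga and Fgb, chains of the clotting protein fibrinogen, and C3, the central component of complement, at 13.37, 13.00 and 12.94. Lcn2, which codes for the iron-sequestering protein lipocalin 2, was the only gene of the list below Saa3, at 15.9 CPM per counted kilobase against 28.2. Countability varied within the list as well. By the search with up to 2 mismatches, 14 of the 24 had no window in another gene, while 7 had more than 50% there, among them the orosomucoid genes Orm1 and Orm2 at 51.6% and 63.2%, and the iron hormone gene Hamp at 73.6%.

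**Figure D4:**
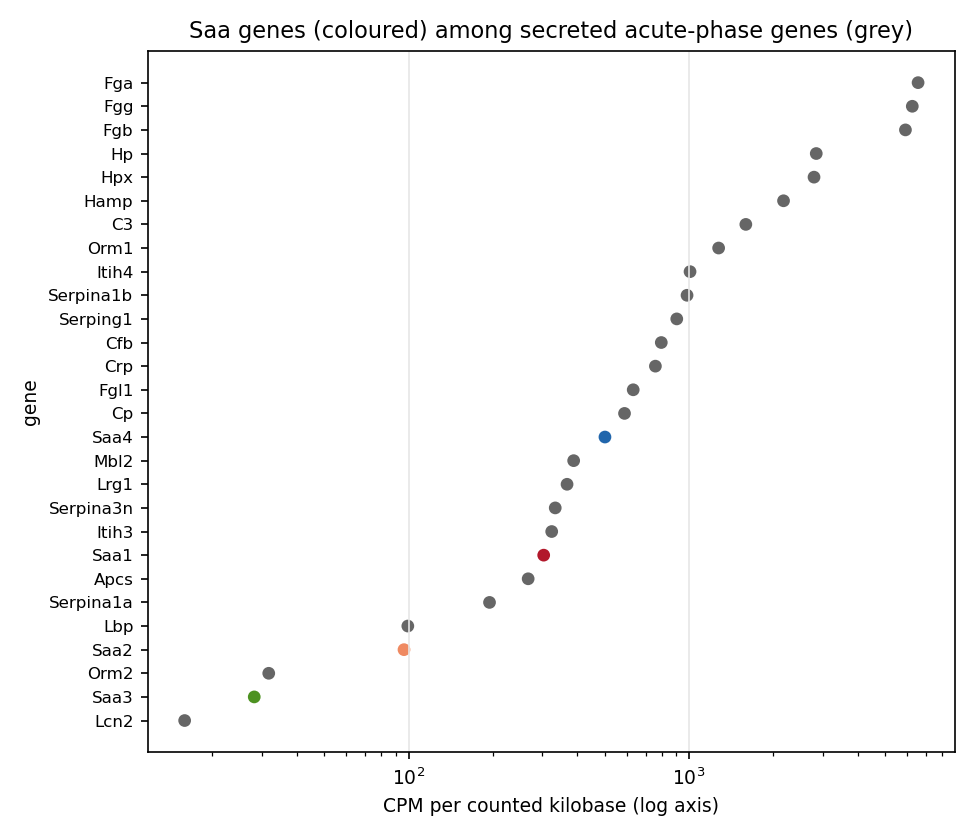
Level of each acute-phase gene with a line (CPM per counted kilobase, log x axis), Saa genes coloured and 24 others in grey, sorted by level. On this scale Saa4 (501) and Saa1 (303) lie in the lower part of the list, and Saa2 (96.3) and Saa3 (28.2) near its lower end, with Lcn2 (15.9) below them.

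Serum amyloid A proteins reside on HDL, and the genes for the main proteins of that particle had far more footprints than the Saa genes. Of 14 genes for HDL proteins and HDL handling, 13 had a line, with a median of 1039 CPM per counted kilobase. Of these, 8 were above Saa4 and Saa1, and 11 above Saa2 and Saa3. Per start unique at 2 mismatches, 8 were above Saa4, 5 above Saa1, 8 above Saa2 and 11 above Saa3. At 1 mismatch 7 were above Saa1 and 8 above Saa2, and with exact matches 8 and 10. The counts for Saa4 and Saa3 stayed the same. The highest were Apoe, Apoa2 and Apoa1, which encode major apolipoproteins, at log2 CPM of 14.68, 14.34 and 14.20. Per counted kilobase Apoa1, the main protein of HDL that Saa can displace during inflammation, was at 25548 CPM, against 303 CPM for Saa1 and 501 CPM for Saa4, or 84.2-fold and 50.9-fold higher. Apoa1 shared 0 windows with other genes, and per start unique at 2 mismatches it was 14.5-fold above Saa1 and 48.4-fold above Saa4. Apoa1 was 25.5-fold above Saa1 at 1 mismatch and 52.2-fold above it with exact matches. Scarb1, the HDL receptor that also binds Saa, was at 97.0 CPM per counted kilobase, close to the 96.3 of Saa2. Per 1000 starts unique at 2 mismatches, Scarb1 was at 98.9 CPM, against 359 for Saa2. At 1 mismatch Saa2 was at 248 and with exact matches at 148, with Scarb1 unchanged. Of 6 genes for receptors reported to bind Saa, 4 had a line. After Scarb1 came Cd36, a scavenger receptor, at 28.7 CPM per counted kilobase, against 28.2 for Saa3. Per 1000 starts unique at 2 mismatches, Cd36 was at 29.3 CPM, against 44.9 for Saa3. Fpr2 and Tlr4, receptors of innate immune cells, were at 2.91 and 1.19.

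Genes of the cytokine pathway that acts on Saa transcription had fewer footprints per length than Saa1. Of 20, 16 had a line, with a median of 17.9 CPM per counted kilobase, and all 16 were below Saa1 and Saa4, 14 below Saa2 and 10 below Saa3. Of the 15 whose windows were searched, all 15 were below Saa1, Saa2 and Saa4 and 9 below Saa3 per start unique at 2 mismatches. With exact matches, 1 of the 15 was above Saa2, Hnf4a at 213 CPM per 1000 starts against 148. The counts for the other members stayed the same. The highest by log2 CPM were the hepatocyte transcription factor gene Hnf4a at 8.15, the interleukin-1 receptor accessory gene Il1rap at 7.97 and the kinase gene Jak1 at 7.57. Il6ra and Il6st, which encode the subunits of the interleukin-6 receptor and were named after their values were seen, were at 18.9 and 53.9 CPM per counted kilobase. Stat3, the transcription factor downstream of that receptor and likewise named afterwards, was at 81.6.

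By median log2 CPM, hepatocyte markers were the highest of the marker lists, at 13.5. Of 7 hepatocyte markers 6 had a line, up to a log2 CPM of 16.48 for albumin (Alb), the highest in the table, and Cps1 had none. Of 10 markers of Kupffer cells and other macrophages, where Saa3 can be made, 9 had a line, with a summed level of 539 CPM and Clec4f, a lectin of Kupffer cells, highest at a log2 CPM of 8.09. Of 8 neutrophil markers only S100a9 had a line, at 0.89, and of 4 adipocyte markers only Fabp4, at 1.81. None of 4 lymphocyte markers had a line, and all 5 markers of endothelium and 4 of stellate cells did, with summed levels of 371 and 148 CPM. A missing line cannot be read as few footprints, since the hepatocyte marker Cps1 lacked one too, and why was not examined. In whole liver, fewer cells of a type and less RNA per cell cannot be told apart. Which cells the Saa footprints came from was not tested.

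The promoters of Saa1 and Saa2 were the closest pair, as their coding sequences were. Over RefSeq windows from 250 bases before to 50 bases after each start (GRCm38.p6), 287 of 299 aligned bases were the same, or 96.0%, against 59.8% for Saa1 and Saa3 and 55.3% for Saa1 and Saa4. The letters TTGCNNAA, a form of the site of C/EBP transcription factors, were present on either strand in all 4 Saa windows and in 10.8% of 32544 windows of mouse genes. They began at position -182 from the start in Saa1, -183 in Saa2, -99 in Saa3, and -245 and -52 in Saa4. A looser form, TTNNGNAA, which covers every match of the first on one strand or the other, was likewise in all 4 and in 40.7% of windows. The letters GGNNNTTCC, part of an NF-kB site, were found in Saa3 alone, at -187, and in 18.5% of windows. TTCNNNGAA, the letters of a STAT site, and TATAAA were in 0 of 4 and in 8.33% and 13.6% of windows. A match is a description of letters and not a site, and no footprint value bears on these windows.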

How the data were processed

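Ribosome footprints were measured in 8 libraries from 4 mouse livers, grouped by sample title. According to the study's methods, the authors trimmed adapters, removed ribosomal RNA reads, aligned the rest with Bowtie to the longest RefSeq isoform of each gene (mm9), kept unique alignments with up to 2 mismatches, and did not count footprints in the first 15 or last 3 codons. The authors ran edgeR on genes over 1 CPM in at least 3 samples. Their versions are not given in the sources used.

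The deposited log2 CPM is the authors' average over all libraries, which by the design of edgeR includes a small prior count that raises low genes most. The other deposited columns hold the authors' log2 fold change, linear fold change, p-value and adjusted p-value for the comparison of the diets. These were neither read nor used. The table holds 0 columns of values per sample, so the quasi-likelihood test planned for counts per library was not run. The levels of the 7500 lines sum to 857014 CPM of a possible 1000000, and genes without a line, Gapdh among them, were not analysed here, so ranks hold among the genes with a line.

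CPM was computed as 2 to the power of the log2 CPM. Coding sequences, coordinates and exons came from GENCODE vM1 on NCBIM37, the assembly of mm9 (reference strain, not FVB/N). The counted region left out 15 codons after the start codon, 3 before the stop codon, and both of these codons, 60 bases in all. The authors' transcript set was RefSeq, so the windows searched approximate theirs. For some listed genes, Fga, Apoc3 and Il1rap among them, the coding sequence searched was longer than the counted length, which lowered their levels per start. The search was tested on simulated sequences with planted mismatches. Proteins were translated from the coding sequences, in place of the RefSeq proteins planned, and aligned globally (BLOSUM62, Biopython 1.88). Python 3.11.15, numpy 2.4.6 and pandas 2.3.3 were used.

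The members and gene lists were chosen with earlier results of these data known. All members were named, and of each list the 3 highest by log2 CPM. Genes outside this rule were named after their values were seen: Lcn2, Fpr2, Orm1, Orm2, Hamp, Il6ra, Il6st, Stat3, Gapdh and the markers given. So were Cfb, Serpina1a, Serpina1b and Gm20547.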

Additional observations from a re-analysis of the deposited data

How the results depend on the processing

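Alternatives were the length a level is divided by, the genes ranked, the mismatches and window length of the search, the denominator of identity and the promoter window. Levels per 1000 starts unique at 0 or 1 mismatch, the same for the gene lists, and ratios between members on each scale, were added after seeing the data. No paired analysis was possible because the table holds no value per mouse, and mouse numbers are not shared between diets. For the same reason the comparison of the diets was not run, nor were its other normalization and count test, its filter on low counts, and the repeats without each mouse or with 1 library per mouse.

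Per kilobase of whole coding sequence, the levels of Saa1, Saa2, Saa3 and Saa4 were 254, 80.7, 23.6 and 425 CPM, in place of 303, 96.3, 28.2 and 501 per counted kilobase. Per 1000 starts unique at 2 mismatches they were 1837, 359, 44.9 and 549 CPM, at 1 mismatch 1041, 248, 37.4 and 549 CPM, and at 0 mismatches 509, 148, 35.0 and 549 CPM. Saa1 relative to Saa4 was -0.73 on the log2 scale per counted kilobase and -0.11 per start unique at 0 mismatches, and reversed to 0.92 at 1 mismatch and 1.74 at 2. The change follows from the denominators, since Saa4 keeps all of its starts. The other 5 of 6 pairs of members kept their order under each of 4 alternatives. For the pairs among Saa1, Saa2 and Saa3 this was fixed in advance. Their counted lengths are equal, and the member with more CPM had fewer unique starts at each number of mismatches.

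The share of windows found in another gene, 81.8%, 70.4% and 30.7% for Saa1, Saa2 and Saa3, was 67.9%, 57.1% and 16.8% at 1 mismatch and 34.3%, 28.2% and 11.1% at 0. With windows of 26 bases it was 84.9%, 75.0% and 36.6%, and 2.60% for Saa4, and with 36 bases 77.0%, 63.1% and 27.7%. Saa4 stayed at 0 otherwise. Protein identity was the same for all 6 pairs with either denominator. It could not differ, since the aligned residues and the shorter protein both numbered 122 in every pair. Among genes at or above a log2 CPM of 3, Saa3 exceeded 2.90% of genes in place of 35.3%.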
